A study of Mus musculus with 30 samples.

Results

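The genes described are 10 members of the antigen presentation and costimulation machinery of microglia, namely H2-Aa, H2-Ab1, H2-Eb1, H2-DMa, H2-DMb1, Cd74, Ciita, Cd80, Cd86 and Cd274. They were chosen by name from a table of 54532 genes, and all 10 were found in it. The table holds read counts from bulk mRNA sequencing of 30 libraries of C57/B6 mouse microglia, in 10 groups of 3 libraries. Each of 5 isolation protocols was followed with and without HMGB1, and the comparisons ask how the route of isolation shapes resting cells and their response.

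In Protocol 1, microglia were shaken from mixed glial cultures of pups aged 0 to 3 days, with 5 mice per suspension and a different litter per replicate. Protocol 1A used 10 days of culture in GM-CSF, a growth factor of myeloid cells, at 0.5 ng/ml. Protocol 1B used 10 days without GM-CSF, and Protocol 1C used 21 days at the GM-CSF dose of 1A. In Protocol 2, adherent cells from 3 pooled brains of mice aged 6 to 8 weeks were grown in GM-CSF and M-CSF, each at 100 ng/ml, over 7 days. In Protocol 3, cells of mice aged 6 to 8 weeks were enriched with CD11b MicroBeads and used at once, so this group was never cultured with a growth factor. The marker CD11b is shared by other myeloid cells. The cells of every protocol were held in serum-free X-VIVO medium, and the HMGB1 libraries were harvested after 4 h of treatment. A dose of 1 ug/ml is given for Protocol 3, while the dose in the other protocols is not given in the sources used here. Age, culture time, growth factors and handling all differ between Protocols 1, 2 and 3, so their parts in a difference between these protocols cannot be told apart. Per the study, RNA yield and integrity were lower in Protocol 3 than in Protocol 2, and purity was lower in both than in Protocol 1. The part of RNA quality and purity cannot be told apart either.

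MHC class II molecules are pairs of an alpha and a beta chain that show peptides from engulfed material to CD4+ T cells. The invariant chain, encoded by Cd74, guides the new pair to the endosome, H2-DM then helps exchange its placeholder for a peptide, and the transactivator CIITA switches on the whole set. CD80 and CD86 give the T cell its costimulatory signal through CD28, whereas PD-L1, the product of Cd274, restrains the T cell through PD-1. HMGB1 is a nuclear protein that acts as an alarm signal once it leaves damaged cells. Resting microglia of healthy brain are known for low class II.

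Levels are given as CPM, counts scaled to a common library size by TMM, which corrects for differences in RNA composition between libraries. Library totals ran from 14151983 to 28564757 counts. Scaling factors ran from 1.14 to 1.25 in the Control libraries of Protocol 1 and from 0.731 to 0.909 in its HMGB1 libraries. Exchanging them for DESeq2 size factors ended no call of a member. Both sets of factors come from the same counts, so the exchange cannot tell whether the scaling itself is right. The microglial label was checked against 12 markers, of which 12 reached a mean of 1 CPM in Protocol 3 Control and 11 in each of the other Control groups. Siglech, a microglial surface lectin, was at 445 ± 23.7 CPM (SD, n = 3) in Protocol 3 Control and at 0.587 ± 0.223 CPM in Protocol 2 Control, with lower means in the 3 Control groups of Protocol 1. Tmem119, another microglial marker, was at 60.0 ± 21.1 CPM in Protocol 3 Control and at 1.24 ± 0.186 CPM in Protocol 1A Control. The sum of the 12 markers differed less. Its median was 5930 CPM in Protocol 3 Control, 2923 CPM in Protocol 2 Control and 1698 to 2266 CPM in the Control groups of Protocol 1. Itgam, of the same list, was at 87.9 ± 1.27 CPM in Protocol 3 Control, 452 ± 23.5 CPM in Protocol 2 Control and 74.4 to 150 CPM in the Protocol 1 Control groups. These are bulk samples, in which fewer cells of a type and less RNA per cell cannot be told apart. The p-values below come from edgeR's quasi-likelihood test with Benjamini-Hochberg adjustment over all genes tested, a gene is said to rise or fall at an adjusted p under 0.05, and errors of log2 fold changes are standard errors.

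The class II chains lie together on mouse chromosome 17, H2-Aa at chr17:34282744-34287827 on the minus strand, H2-Ab1 at chr17:34263209-34269418 and H2-Eb1 at chr17:34305877-34316199 on the plus strand. H2-DMa at chr17:34135182-34139101 and H2-DMb1 at chr17:34153072-34160230 lie in the same region. These positions come from the count table, in which 98.3% of 54495 shared gene identifiers sit where GENCODE M21 on GRCm38 places them. Of the class II genes listed here, H2-DMb1 has the same position in GENCODE M21, and the others have different bounds. There H2-DMa runs from 34119541 to 34139101 and H2-Ab1 from 34257689 to 34269419. H2-Aa runs from 34282744 to 34287823 and H2-Eb1 from 34305867 to 34316674. Promoter stretches are shown because H2-Aa, H2-Eb1, Cd74 and Ciita went up and down together over the groups, and because the X and Y boxes are the textbook elements through which CIITA acts. The X-box-like letters CTNGNAACT, in which N is any base, and the Y box letters TGATTGG are in capitals below, and both were spelled with these promoters in view. The sequences are from RefSeq on GRCm38.p6, read 5′ to 3′ on the strand of the gene, at chr17:34287857-34287917 (minus strand) for H2-Aa and chr17:34305763-34305822 (plus strand) for H2-Eb1.
H2-Aa: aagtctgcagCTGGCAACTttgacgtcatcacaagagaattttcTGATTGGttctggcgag
H2-Eb1: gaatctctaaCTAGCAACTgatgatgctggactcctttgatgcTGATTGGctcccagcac

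In H2-Aa the X-like letters begin 84 bases before the RefSeq start and are followed after 25 bases by the Y box, and in H2-Eb1 they begin 94 bases before the start with 24 bases between. H2-DMb1 carried CTAGTAACT and TGATTGG with 25 bases between them, beginning 97 bases before its RefSeq start, a stretch that the count table places inside the gene. RefSeq windows of 250 bases before to 50 after the start were at hand for 6 of the 10 members, and the windows of Cd80, Cd274 and H2-DMa held neither set of letters. The H2-DMa windows, at chr17:34122582-34122881 and chr17:34125268-34125567, lie before the gene as the count table places it. The Cd80 window, at chr16:38458683-38458982, lies inside its gene. The starts that the count table gives for H2-DMa and Cd80 were thus not searched. Among 32851 such windows, 4.1% held the X-like letters and 7.82% the Y box on either strand, 0.35% held both, and 5 windows (0.0152%) held them in this order on the gene's strand before the start with at most 30 bases between. Of these 5 windows, 3 are those of H2-Aa, H2-Eb1 and H2-DMb1 themselves. As the letters were spelled with these promoters in view, that share is no independent background for them. A match is a description of letters, and H2-DMb1, which shares them with H2-Aa and H2-Eb1, had a different pattern of levels.

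Among resting cells, the class II chains and Cd74 were highest in acutely isolated adult microglia and lowest in the neonatal cells grown without GM-CSF. H2-Aa, the alpha chain of the I-A molecule, was at 169, 167 and 145 CPM in the 3 Protocol 3 Control libraries. It was at 3.62, 5.13 and 4.57 CPM in Protocol 2 Control, at 6.35, 7.38 and 8.18 CPM in Protocol 1C Control and at 2.38, 8.19 and 13.9 CPM in Protocol 1A Control. In Protocol 1B Control it was at 0, 0 and 0.152 CPM, from 3 reads in all. Protocol 3 thus stood apart from the 12 other Control libraries with no overlap, and Protocol 1B lay below all of them. By summed counts H2-Aa was 3459-fold higher in Protocol 3 than in Protocol 1B (95% exact interval 1183 to 16774, counting error only) and 167-fold higher in Protocol 1A than in Protocol 1B (57.0 to 814).

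Cd74, the invariant chain, was likewise highest in Protocol 3 and lowest in 1B, with 1C before 1A in between. It stood at 1379, 1373 and 1488 CPM in Protocol 3 Control, against 27.1, 33.7 and 38.9 CPM in Protocol 2 Control. The Protocol 1 Control groups had 24.3, 43.1 and 73.8 CPM in 1A, 48.1, 55.2 and 73.6 CPM in 1C, and 3.06, 4.79 and 4.88 CPM in 1B. Every Protocol 3 library was far above the rest, and the 1A libraries overlapped those of 1C and of Protocol 2, while every 1C library lay above every Protocol 2 library. H2-Ab1, the I-A beta chain, was at 213 ± 18.1 CPM in Protocol 3 Control, 11.8 ± 0.867 CPM in Protocol 2 Control and 1.26 ± 0.323 CPM in Protocol 1B Control (SD, n = 3 each). H2-Eb1, the beta chain of I-E, was at 262 ± 16.1, 3.38 ± 0.691 and 0.136 ± 0.0321 CPM in the same groups, the last from 9 reads in all. C57BL/6 mice do not express the partner alpha chain of I-E, so H2-Eb1 is read here as a transcript only.

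Ciita, the transactivator, was low in all groups. It was at 9.01, 11.2 and 8.09 CPM in Protocol 3 Control, and no Control library of the other protocols exceeded 1.46 CPM, the value of 1A Control library 3. Protocol 1B Control held 2, 1 and 4 reads of it. Dexi, a gene on the opposite strand that overlaps Ciita, stayed between 4.60 and 7.95 CPM in the group means. Whether the counting used strand is not given in the sources used here, so reads of this pair may not be told apart. Dexi was at 6.29 ± 1.12 CPM in Protocol 3 Control, and the part of shared reads in the Ciita levels was not tested.

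**Figure D1:**
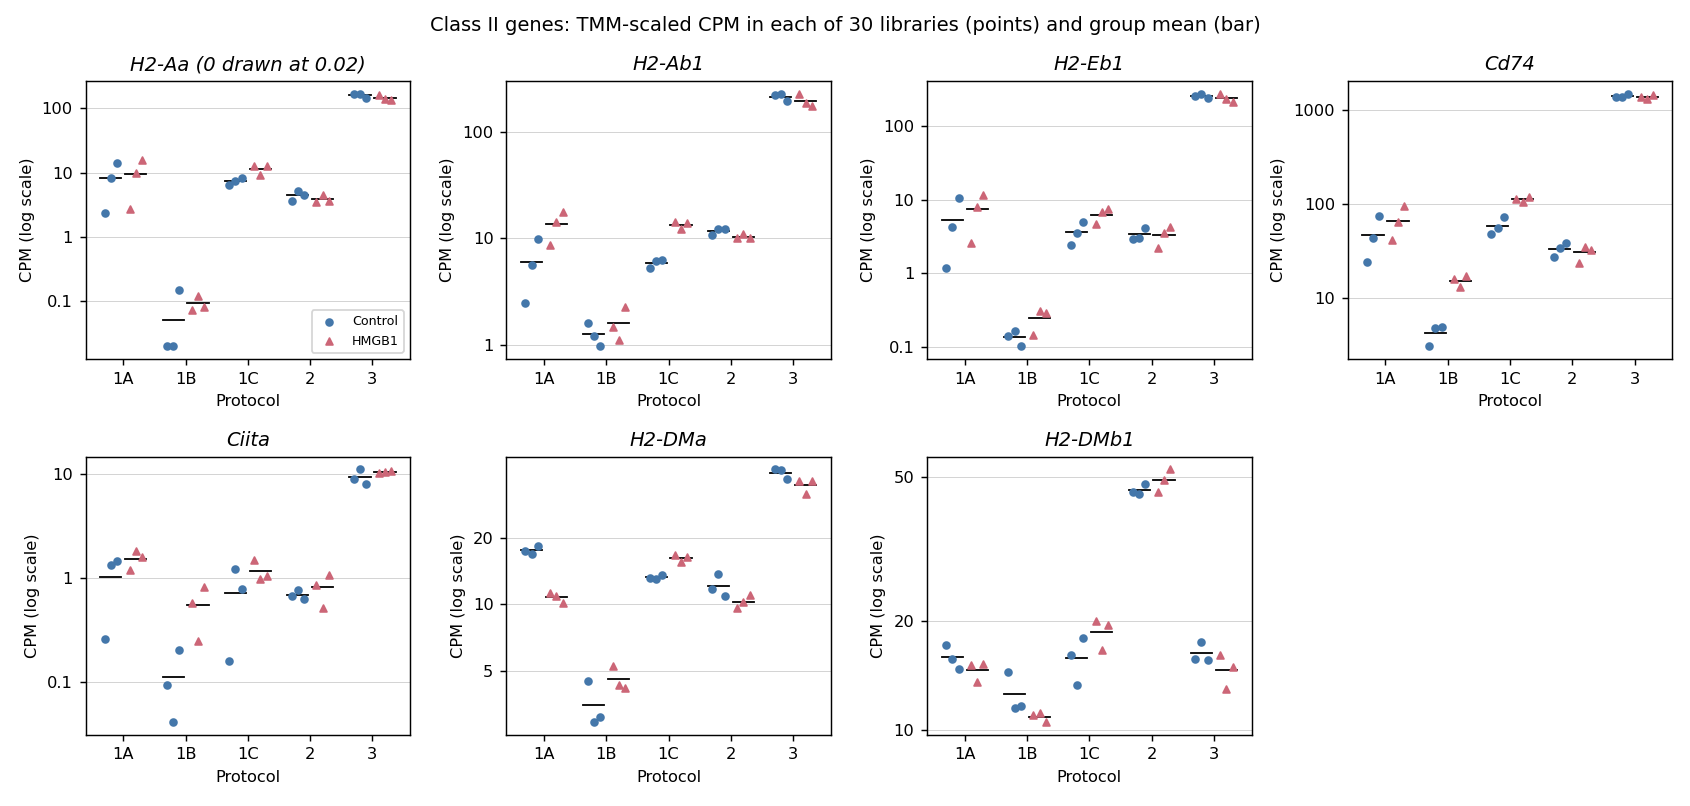
TMM-scaled CPM on a log scale of the 7 class II genes, with 1 panel per gene and the 5 protocols along the x axis; circles are Control libraries, triangles HMGB1 libraries and bars group means. The Protocol 3 libraries of H2-Aa, from 137 to 169 CPM, lie above all others, the 2 Protocol 1B libraries with 0 counts are drawn at 0.02, and H2-DMb1 peaks in Protocol 2 near 46.1 and 48.9 CPM.

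Set against Protocol 3 Control, Protocol 1 Control, the mean of its 3 variants on the log scale, was lower in all 10 members, and 8 of them had no overlap between libraries. Across all 17033 genes tested this comparison called 80.1%, with 42.9% lower, and 33.8% were lower with no overlap, so a called gene was no rarity here. H2-Eb1 fell by 7.60 ± 0.38 on the log2 scale (adjusted p = 5.08e-09), Cd74 fell by 6.01 ± 0.25 (adjusted p = 7.79e-10) and Ciita fell by 4.47 ± 0.37 (adjusted p = 2.25e-09). The median over the 10 members was -3.97 and that of all genes tested was -0.12. H2-DMb1 was the weakest, at -0.21 ± 0.09 (adjusted p = 0.0482), and it lost its call when any library compared other than 1B Control library 1 or 1C Control library 3 was left out (10 of 12, log2 values from -0.23 to -0.15), with no filter on low counts (-0.082) and with 1A alone as Protocol 1 (-0.11). The Cd274 call was lost when 1A alone stood for Protocol 1 (log2 -0.50, adjusted p = 0.0744).

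Protocol 2 Control against Protocol 3 Control called all 10 members, 8 lower and 2 higher, beside 77.3% of all genes tested. H2-Aa fell by 5.26 ± 0.46 on the log2 scale (adjusted p = 9.95e-07) and Cd74 fell by 5.50 ± 0.39 (adjusted p = 1.19e-07). The members that rose were H2-DMb1 and Cd274. The cultured adult cells thus held less of the class II chains and Cd74 but more of H2-DMb1 and Cd274 than the acutely isolated ones.

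Within the neonatal cultures, 1A and 1B share age and time in culture and differ in GM-CSF. In Protocol 1B Control all 10 members lay below 1A Control with no overlap between libraries, against 21.1% of all genes tested. By the test, 9 of 10 were lower, beside 30.8% of all genes called and 12.6% called lower. The log2 fold change was -7.24 ± 1.06 for H2-Aa (adjusted p = 3.97e-04), -5.12 ± 1.04 for H2-Eb1 (adjusted p = 0.00357) and -2.17 ± 0.45 for H2-Ab1 (adjusted p = 0.00355). It was -3.42 ± 0.40 for Cd74 (adjusted p = 6.91e-05), -3.11 ± 0.75 for Ciita (adjusted p = 0.0040) and -2.29 ± 0.14 for H2-DMa (adjusted p = 2.38e-10). H2-DMb1, at -0.31 ± 0.12 on the log2 scale, missed the threshold (adjusted p = 0.0511) and passed with DESeq2 size factors (adjusted p = 0.0423), without 1A Control library 3 (0.0485) or 1B Control library 1 (0.0212), and with the compared groups alone (0.0282).

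Markers of other cells moved between the same groups. Of 12 dendritic cell markers, 5 reached a mean of 1 CPM in 1A Control and 3 in 1B Control. Their summed level was 81.7 to 101 CPM in 1A and 7.78 to 8.59 CPM in 1B, with Flt3 and Cd209a at 0 counts in both and Ly75 giving most of the 1A sum at 78.8 ± 8.33 CPM. Monocyte markers summed to 471 to 559 CPM in 1A Control (5 of 7 at 1 CPM or more, Plac8 at 0) and 187 to 289 CPM in 1B Control (2 of 7, Ly6c2 at 0), and Ccr2 was at 33.0 ± 8.15 against 0.438 ± 0.12 CPM. Zbtb46 went the other way, at 1.27 ± 0.13 CPM in 1A and 2.15 ± 0.25 CPM in 1B. Border macrophage markers summed to 632 to 665 CPM in 1A Control (6 of 8 at 1 CPM or more) and 1023 to 1271 CPM in 1B Control (6 of 8). T and NK cell markers summed to 2.90 to 5.04 and 32.6 to 51.2 CPM (1 of 8 in each), with Cd3e, Cd3d, Cd3g, Cd8a, Nkg7 and Ncr1 at 0 counts in both. Neutrophil markers summed to 43.0 to 60.8 and 2.19 to 4.24 CPM (2 of 8 and 1 of 8), with Ly6g and Retnlg at 0 counts in both. The part of these markers in the difference of the class II genes was not tested.

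Beside the high class II levels of Protocol 3 Control, the dendritic cell markers summed to 92.6 to 98.7 CPM, with 7 of 12 at 1 CPM or more. Ccr7 made up 43.3 ± 4.77 CPM and Zbtb46 24.8 ± 1.57 CPM of it, whereas Flt3 stood at 0.524 ± 0.289 CPM and Cd209a at 0.555 ± 0.195 CPM. B cell markers summed to 158 to 194 CPM (3 of 8 at 1 CPM or more; 106 to 131 CPM in Protocol 2 Control), of which Ighm gave 160.5 ± 18.8 CPM while Cd79a stood at 0.529 CPM and Ms4a1 at 0.166 CPM on average. Neutrophil markers summed to 349 to 738 CPM, with 8 of 8 at 1 CPM or more, and to at most 60.8 CPM in any other Control library. Border macrophage markers, at 206 to 209 CPM (8 of 8), and monocyte markers, at 107 to 143 CPM (7 of 7), had their lowest sums of the 5 Control groups there. Single monocyte markers did not all follow the sum, and 5 of 7 reached 1 CPM in Protocol 2 Control and 2 of 7 in 1B Control. Ly6c2 was at 10.9 ± 3.44 CPM in Protocol 3 Control, 0.868 ± 0.177 CPM in Protocol 2 Control and 0 in 1B Control. It was higher in 1A and 1C Control, at 36.7 and 16.8 CPM. Ccr2 was at 3.01 ± 0.438 CPM in Protocol 3 Control and 3.31 ± 0.573 CPM in Protocol 2 Control. Endothelial markers summed to 112 to 121 CPM in Protocol 3 Control (6 of 6) and to at most 51.0 CPM in any other Control library. Fibroblast markers summed to 2.00 to 2.66 CPM in Protocol 3 Control (1 of 6) and to 176 to 265 CPM in Protocol 2 Control (6 of 6). The part of these markers in the levels of Protocols 3 and 2 was not tested.

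Protocols 1C and 1A share the GM-CSF dose and differ in days of culture. Of the 10 members, 1 differed between 1C and 1A Control, beside 21% of all genes tested. H2-DMa fell from 17.4, 16.9 and 18.3 CPM in 1A to 13.2, 13.04 and 13.6 CPM in 1C, without overlap, by 0.39 ± 0.12 on the log2 scale (adjusted p = 0.0257). The call was lost without any of the 6 libraries, with adjusted p from 0.0515 to 0.0739. For H2-Eb1 the 95% confidence interval was -1.68 to 0.80 on the log2 scale, for H2-Aa -1.11 to 0.89 and for Ciita -1.54 to 0.74, so a fall of more than 1 on that scale was within the error of these 3. The intervals of H2-Ab1 (-0.74 to 0.81), Cd74 (-0.38 to 1.07) and H2-DMb1 (-0.23 to 0.24) did not reach such a fall.

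Protocol 1A itself was uneven in class II. Its replicates differed 5.85-fold in H2-Aa, 8.78-fold in H2-Eb1 and 3.04-fold in Cd74 among Control libraries, with replicate 1 lowest and replicate 3 highest, and the HMGB1 libraries held the same lowest and highest numbers for these 3 genes. H2-DMa differed only 1.08-fold and Cd86 1.12-fold between the same Control libraries. In the HMGB1 libraries of 1A the spread was 5.78-fold for H2-Aa and 1.37-fold for Cd86. Ciita differed 5.61-fold between the 1A Control libraries, on 7, 31 and 31 reads, and 1.55-fold between the HMGB1 libraries, where library 2 was highest. The spread was thus wide in both groups for H2-Aa, H2-Eb1 and Cd74 and narrow in both for H2-DMa.

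Protocol 1 Control against Protocol 2 Control gave 6 lower members, namely H2-Ab1, H2-DMa, H2-DMb1, Cd80, Cd86 and Cd274, beside 55.3% of all genes called and 30.7% called lower. The result depends on which cultures stand for Protocol 1. When 1A alone stood for Protocol 1, H2-DMa turned to 0.55 above Protocol 2 (adjusted p = 6.73e-04), and the log2 values of H2-Aa, H2-Eb1, Cd74 and Ciita turned from below 0 to 0.87, 0.62, 0.51 and 0.55 without passing. Cd80 lost its call there (log2 -0.27, adjusted p = 0.0751), and H2-DMa lost its call without Protocol 2 Control library 2 (adjusted p = 0.0803).

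H2-DM is a pair of chains that must assemble, yet its genes went separate ways. H2-DMb1 was at 45.5, 44.9 and 47.8 CPM in Protocol 2 Control and at 15.8, 17.6 and 15.7 CPM in Protocol 3 Control, a rise of 1.41 ± 0.11 on the log2 scale (adjusted p = 4.34e-10). H2-DMa ran the other way, with 11.8, 13.6 and 10.9 CPM in Protocol 2 Control and 40.7, 40.5 and 36.9 CPM in Protocol 3 Control, a fall of 1.78 ± 0.12 (adjusted p = 3.03e-11). No library of one protocol overlapped those of the other for either gene. The ratio of H2-DMa to H2-DMb1 per length within a library was 2.18 in Protocol 3 Control, 1.00 in 1A Control, 0.764 in 1C Control, 0.249 in 1B Control and 0.237 in Protocol 2 Control. H2-DMb2, a near-identical copy of H2-DMb1 that could take or give reads, had group means of 0.121 to 1.73 CPM and was highest in Protocol 3 Control.

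Per length, the invariant chain led the members in Protocol 3 Control, at 1002 RPKM, before H2-Eb1 at 221, H2-Ab1 at 130, Cd86 at 101 and H2-Aa at 85.5 RPKM. In 1B Control the order began with H2-DMb1 at 8.46 RPKM and Cd274 at 7.75 RPKM, while Cd74 was at 3.01 RPKM and H2-Aa at 0.0271 RPKM.

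**Figure D2:**
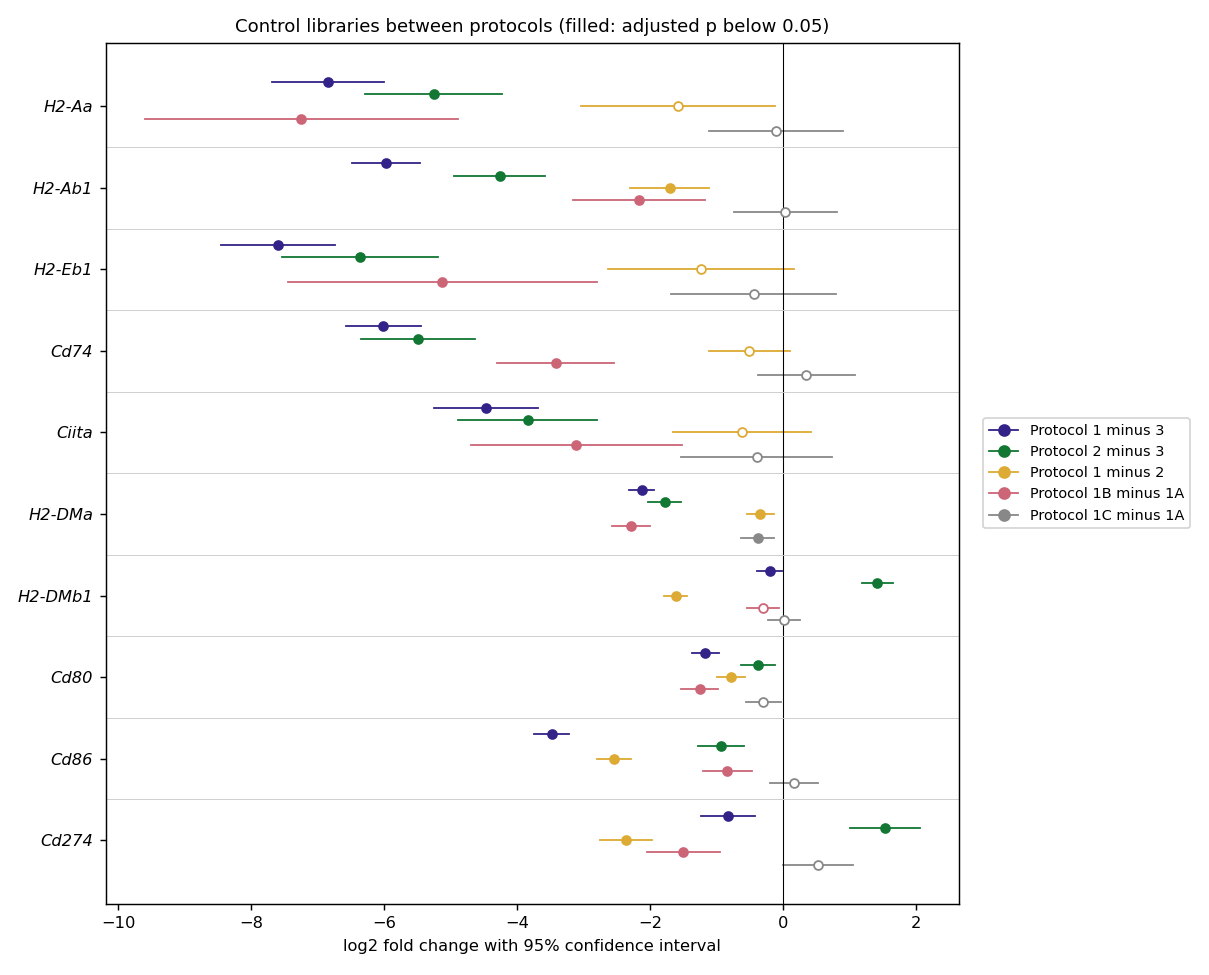
Log2 fold changes of the 10 members between Control groups on the x axis, with 95% confidence intervals as lines and 1 color per comparison; filled points passed an adjusted p of 0.05. Values of the class II chains reach -7.60 against Protocol 3, and H2-DMb1 and Cd274 are the points above 0 for Protocol 2 minus 3, at 1.41 and 1.53.

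The costimulatory genes varied less over resting cells than the class II chains. Cd86, at chr16:36603869-36666081, was at 395, 369 and 342 CPM in Protocol 3 Control, at 163, 233 and 217 CPM in Protocol 2 Control and at 38.1, 41.2 and 42.5 CPM in 1A Control. Its 1C Control libraries had 52.5, 32.9 and 49.3 CPM and its 1B Control libraries 23.6, 24.3 and 18.2 CPM. Every Protocol 3 library was thus above every Protocol 2 library, and every Protocol 2 library above every Protocol 1 library. Cd86 fell by 3.48 ± 0.12 on the log2 scale from Protocol 3 to Protocol 1 (adjusted p = 1.30e-12), fell by 0.94 ± 0.16 from Protocol 3 to Protocol 2 (adjusted p = 1.04e-04) and fell by 0.84 ± 0.17 from 1A to 1B (adjusted p = 0.00185).

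Cd80, at chr16:38455561-38496335, had a narrower range, from 5.78 ± 0.712 CPM in 1B Control to 21.1 ± 3.40 CPM in Protocol 3 Control (SD, n = 3 each). Protocol 1 was lower than Protocol 3 by 1.17 ± 0.10 on the log2 scale (adjusted p = 6.62e-10) and 1B was lower than 1A by 1.26 ± 0.13 (adjusted p = 4.50e-07). Its fall from Protocol 3 to Protocol 2, by 0.39 ± 0.12 (adjusted p = 0.00722), was lost without Protocol 3 Control library 3, which at 25.0 CPM was above the 19.0 and 19.3 CPM of its group (adjusted p = 0.0820), and with no filter on low counts (adjusted p = 0.127). Per length Cd86 exceeded Cd80 in every group, by 17.8-fold in Protocol 3 Control and 2.92-fold in 1A Control.

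Cd274, at chr19:29367455-29388095, was, like H2-DMb1, highest in Protocol 2 among resting cells. It was at 274, 382 and 361 CPM there, at 114, 126 and 92.0 CPM in Protocol 3 Control and at 29.0, 30.4 and 24.8 CPM in 1B Control. The Protocol 2 libraries lay above and the 1B libraries below all other Control libraries. Protocol 2 was higher than Protocol 3 by 1.53 ± 0.24 on the log2 scale (adjusted p = 1.05e-04), and 1B was lower than 1A by 1.51 ± 0.25 (adjusted p = 7.42e-04). In these resting cells Cd274 did not share the order of the class II chains, since Protocol 3 was not on top.

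HMGB1 raised Cd274 more than any other member, and it did so in the neonatal cultures. In 1A it went from 66.7, 72.8 and 107 CPM to 838, 889 and 909 CPM, a rise of 3.40 ± 0.19 on the log2 scale (adjusted p = 2.00e-05). In 1B it went from 29.0, 30.4 and 24.8 CPM to 886, 1106 and 977 CPM, a rise of 5.14 ± 0.12 (adjusted p = 3.86e-10). In 1C it went from 134, 77.9 and 138 CPM to 2234, 2253 and 2680 CPM, a rise of 4.36 ± 0.23 (adjusted p = 3.81e-07). All treated libraries of Protocol 1 were above all of its Control libraries, and 1C HMGB1 was the highest group of the 10. Per length Cd274 then led all members in 1A, 1B and 1C, at 243, 273 and 660 RPKM.

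Adult-derived cells gave small Cd274 differences. In Protocol 2 the HMGB1 libraries had 356, 428 and 483 CPM against 274, 382 and 361 CPM, a log2 difference of 0.31 ± 0.15 (adjusted p = 0.660), and in Protocol 3 they had 137, 142 and 117 CPM against 114, 126 and 92.0 CPM, a difference of 0.28 ± 0.11 (adjusted p = 0.883). The ranges overlapped in both, but each HMGB1 library lay above the Control library of its own number. Same-numbered libraries deviated together in Protocols 1B, 1C, 2 and 3, and with the replicate number as a block Cd274 passed in Protocol 2 (0.31, adjusted p = 5.09e-08) and in Protocol 3 (0.28, adjusted p = 3.77e-04).

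Cd86 responded in the neonatal cultures as well. Its HMGB1 libraries were at 54.9, 70.6 and 75.2 CPM in 1A, at 59.0, 73.4 and 58.3 CPM in 1B and at 202, 194 and 246 CPM in 1C, each group entirely above its Control. The rises were 0.69 ± 0.11 (adjusted p = 1.75e-04), 1.53 ± 0.13 (adjusted p = 8.41e-06) and 2.26 ± 0.18 (adjusted p = 6.78e-06) on the log2 scale. In Protocol 2 the value was -0.10 ± 0.15 (adjusted p = 0.955). In Protocol 3 the HMGB1 libraries, at 427, 410 and 398 CPM, lay just above the Control libraries without overlap, the log2 difference was 0.18 ± 0.07 (adjusted p = 0.893), and with the replicate block it passed at 0.18 (adjusted p = 0.0133).

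Cd80 had smaller fold changes. It rose by 0.34 ± 0.12 on the log2 scale in 1A (adjusted p = 0.0232), by 0.83 ± 0.18 in 1B (adjusted p = 0.00217) and by 0.93 ± 0.12 in 1C (adjusted p = 2.79e-05), where it went from 11.7, 11.1 and 11.2 CPM to 22.0, 20.4 and 22.1 CPM. The 1A call was lost without its Control library 3 (adjusted p = 0.0802) or its HMGB1 library 2 (adjusted p = 0.109). In Protocols 2 and 3 the log2 values were 0.20 ± 0.09 and 0.20 ± 0.17, with adjusted p of 0.507 and 0.995.

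**Figure D3:**
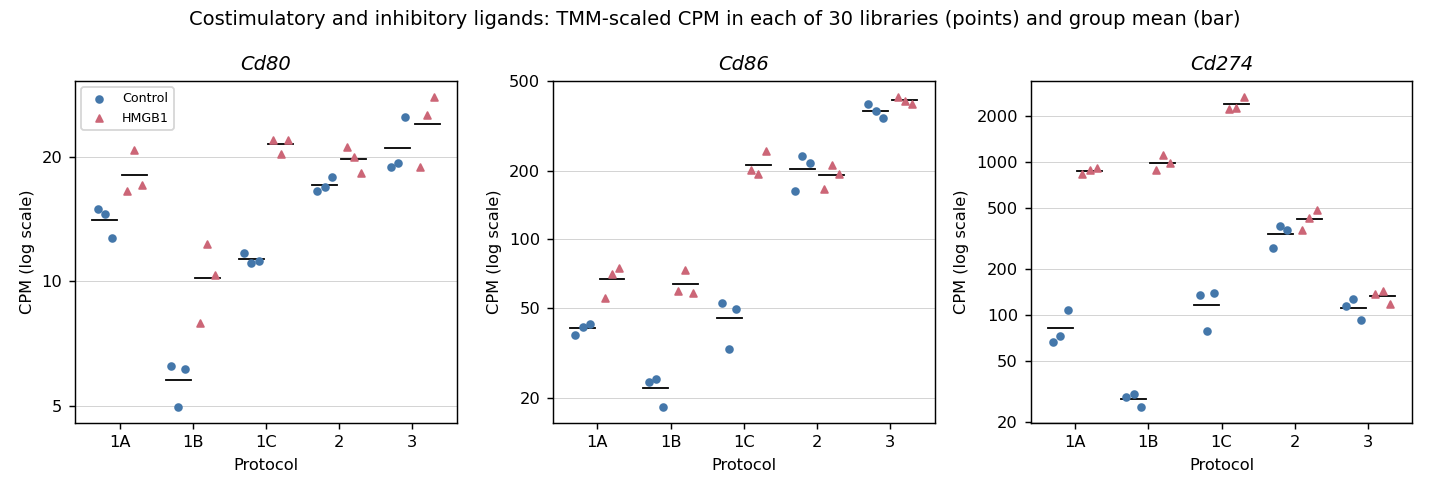
TMM-scaled CPM on a log scale of Cd80, Cd86 and Cd274, with the 5 protocols along the x axis; circles are Control libraries, triangles HMGB1 libraries and bars group means. In Protocols 1A, 1B and 1C every HMGB1 library is above every Control library of its own protocol, with Cd274 up to 2680 CPM, and the Protocol 2 and 3 groups lie close together.

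Counted over the members, HMGB1 called 4 of 10 in 1A (3 higher, 1 lower), 4 of the 7 tested in 1B (all higher) and 8 of 10 in 1C (all higher), beside 61.3%, 61.8% and 60.2% of all genes tested, with 29.7%, 29.8% and 28.4% of all genes called higher. The share of members called higher was thus near the background in 1A and above it in 1B and 1C. In 1B the transcripts H2-Aa, H2-Eb1 and Ciita were too low to be tested in the fit of that protocol. The count in 1C fell to 6 or 7 when a library was left out. None of the 10 passed in Protocol 2, where 1.49% of all genes did and 1 member had an unadjusted p under 0.05, and none passed in Protocol 3, where 0.123% of all genes did and 2 members had an unadjusted p under 0.05. DESeq2, likewise without the replicate block, also called 0 members in both. With the block Cd274 passed in Protocol 2, beside 1236 of 15564 genes tested, and Cd274 and Cd86 passed in Protocol 3, beside 334 of 15401.

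Of the class II genes, a rise of all 3 chains and Cd74 was called in 1C. H2-Ab1 went from 5.28, 6.09 and 6.24 CPM to 14.3, 12.2 and 13.8 CPM, by 1.20 ± 0.15 on the log2 scale (adjusted p = 2.92e-05). Cd74 went from 48.1, 55.2 and 73.6 CPM to 113, 104 and 119 CPM, by 0.93 ± 0.14 (adjusted p = 1.71e-04). H2-Aa rose by 0.66 ± 0.18 (adjusted p = 0.00687) and H2-Eb1 by 0.77 ± 0.27 (adjusted p = 0.0278), the latter with overlapping libraries. Fitted with all 30 libraries at once, H2-Aa and H2-Eb1 lost their calls (adjusted p = 0.225 and 0.239), and H2-Eb1 also lost it without Control library 1 or 2 or HMGB1 library 2 or 3 (adjusted p from 0.0751 to 0.110). Ciita, at 0.69 ± 0.54 in 1C, did not pass (adjusted p = 0.295).

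In 1B Cd74 was the class II gene that rose, from 3.06, 4.79 and 4.88 CPM to 15.9, 13.1 and 17.1 CPM, by 1.86 ± 0.19 on the log2 scale (adjusted p = 9.35e-06). Even so its HMGB1 libraries stayed under the lowest Control library of 1A, which was at 24.3 CPM. H2-Ab1 was at 0.38 ± 0.38 on the log2 scale in 1B (adjusted p = 0.421), so no change of the chain was called. Ciita had 7 reads in the 3 Control libraries and 32 in the 3 HMGB1 libraries of 1B, 5.52-fold more per count sequenced (95% exact interval 2.39 to 14.8, counting error only). In the fit with all 30 libraries, in which it could be tested, this difference was 2.36 ± 0.73 on the log2 scale (adjusted p = 0.00769). H2-Aa had 3 reads before and 5 after, and H2-Eb1 had 9 and 14, with intervals of 0.392 to 12.96 and 0.757 to 4.92 for the ratios, so a change of either was not detectable at this depth.

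In 1A none of the chains passed, although H2-Ab1 had a value of 1.18 ± 0.58 on the log2 scale (adjusted p = 0.153). Its Control libraries held 2.45, 5.59 and 9.79 CPM and its HMGB1 libraries 8.62, 14.2 and 17.7 CPM, higher in each replicate number but overlapping as groups. H2-Aa, H2-Eb1 and Cd74 were likewise higher with HMGB1 in each replicate number, H2-Eb1 at 2.60, 8.13 and 11.8 against 1.19, 4.25 and 10.5 CPM. The H2-Ab1 call depended on the spread that was used. H2-Ab1 passed in the fit with all 30 libraries (adjusted p = 0.00196), without 1A Control library 3 (1.73, adjusted p = 0.0413) and without both replicate 1 libraries of 1A (1.03, adjusted p = 0.0102). With the replicate number as a block, H2-Ab1 (1.26, adjusted p = 7.15e-06), H2-Eb1 (0.64, adjusted p = 0.0113) and Cd74 (0.54, adjusted p = 1.11e-05) passed, though the numbers of 1A fell short of the minimum set for a pairing. H2-Aa was at 0.19 ± 0.92, with an interval of -2.31 to 2.69 that holds a large fall and a large rise alike.

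H2-DMa was the member that fell under HMGB1. In 1A it went from 17.4, 16.9 and 18.3 CPM to 11.2, 10.9 and 10.1 CPM with no overlap, by 0.73 ± 0.11 on the log2 scale (adjusted p = 4.01e-05). In 1C it went up from 13.2, 13.04 and 13.6 CPM to 16.7, 15.6 and 16.4 CPM, by 0.30 ± 0.12 (adjusted p = 0.0465), a call that was lost with the replicate block (adjusted p = 0.0511), without any of the 6 libraries (0.0569 to 0.124), without a filter on low counts (0.145) and with DESeq2 (0.0605). In 1B it was at 0.39 ± 0.22 (adjusted p = 0.153), and it passed in the fit with all 30 libraries (adjusted p = 0.0262). H2-DMb1 passed in no protocol, with log2 values from -0.20 in 1B to 0.25 in 1C. The ratio of H2-DMa to H2-DMb1 per length went from 1.00 to 0.663 in 1A from 0.249 to 0.380 in 1B and from 0.237 to 0.190 in Protocol 2, without overlap in any of them, and in each an exact permutation test of the log2 ratio gave p = 0.10, the smallest that 3 against 3 allows (two-sided).

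In Protocols 2 and 3 no class II gene passed. H2-Aa was at -0.21 ± 0.20 in Protocol 2 and -0.12 ± 0.08 in Protocol 3 on the log2 scale. Their intervals were -0.65 to 0.23 and -0.29 to 0.05. Cd74 was at -0.12 ± 0.19 and -0.04 ± 0.08, with intervals of -0.58 to 0.33 and -0.21 to 0.13. H2-DMa of Protocol 3, at 36.2, 31.4 and 35.9 CPM after HMGB1, was below its Control libraries without overlap, but its value of -0.17 ± 0.09 did not pass (adjusted p = 0.990).

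**Figure D4:**
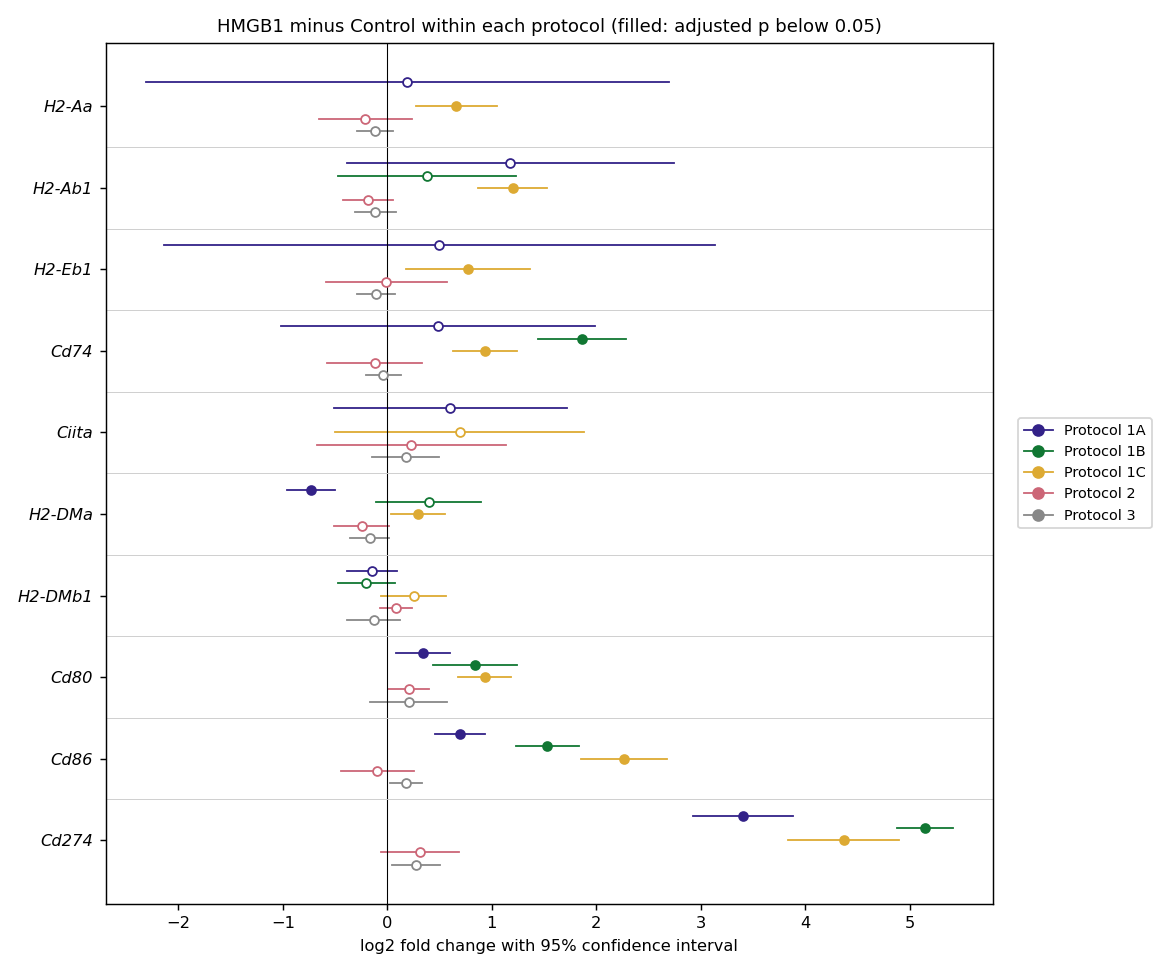
Log2 fold changes of HMGB1 minus Control for the 10 members on the x axis, with 95% confidence intervals as lines and 1 color per protocol; filled points passed an adjusted p of 0.05, and H2-Aa, H2-Eb1 and Ciita have no value in Protocol 1B. Cd274 reaches 5.14 in 1B, H2-DMa of 1A lies at -0.73, and no point of Protocols 2 or 3 is filled.

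The responses themselves were compared between protocols in the fit with all 30 libraries. The value of the response was lower in Protocol 2 than in Protocol 1, again the mean of its variants, in 5 of 10 members, namely H2-Ab1, Cd74, Cd80, Cd86 and Cd274, beside 43.6% of all genes tested and 20.6% with a smaller value. The difference was -3.99 ± 0.24 for Cd274 (adjusted p = 1.91e-12), -1.59 ± 0.18 for Cd86 (adjusted p = 8.36e-08), -1.22 ± 0.35 for Cd74 (adjusted p = 0.00764) and -1.12 ± 0.35 for H2-Ab1 (adjusted p = 0.0126). With the replicate block H2-Eb1 passed too (-0.77, adjusted p = 0.0222). In Protocol 3 it was lower than in Protocol 1 in these 5 members too, beside 42.7% of all genes tested and 22.5% with a smaller value, with Cd274 at -4.05 ± 0.24 (adjusted p = 1.59e-12) and Cd86 at -1.34 ± 0.18 (adjusted p = 1.19e-06). These comparisons share the Protocol 1 libraries. With no filter on low counts H2-Eb1 passed as well (adjusted p = 0.0219 in Protocol 2). In Protocol 3 the block added H2-Eb1 (-0.88, adjusted p = 0.00380) and Ciita (-1.07, adjusted p = 0.0394), and the Cd80 call was lost without Protocol 3 Control library 3 (adjusted p = 0.0695) or HMGB1 library 1 (adjusted p = 0.0675).

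These differences depend on which variant stands for Protocol 1. With 1A alone, Cd74 and Cd80 lost their calls against Protocols 2 and 3 (adjusted p from 0.288 to 0.597), Cd86 lost it against Protocol 3 (-0.56, adjusted p = 0.0558), and the H2-DMa value, a fall in 1A, was higher in the adult protocols than in 1A, by 0.47 in Protocol 2 (adjusted p = 0.0239) and by 0.52 in Protocol 3 (adjusted p = 0.00978). Between Protocols 3 and 2 no member's response differed, beside 0.368% of all genes, and 0 members had an unadjusted p under 0.05. For Cd274 the interval of that difference was -0.62 to 0.51 on the log2 scale.

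Among the neonatal cultures, the response value was higher in 1B than in 1A for 3 of 10 members, beside 6.9% of all genes tested and 3.7% with a larger value. They were H2-DMa (1.09 ± 0.18, adjusted p = 1.43e-04), Cd86 (0.81 ± 0.23, adjusted p = 0.0334) and Cd274 (1.72 ± 0.28, adjusted p = 2.73e-04). The Cd86 call was lost without 1A Control library 2 or 3, 1A HMGB1 library 1, 1B Control library 1 or 3 or 1B HMGB1 library 2 (adjusted p from 0.0503 to 0.108). Cd74, at 1.35 ± 0.47 (adjusted p = 0.0989), passed with the replicate block (1.28, adjusted p = 3.13e-04), with DESeq2, with no filter on low counts, and without 1A Control library 1 or 1A HMGB1 library 3 (adjusted p = 0.0133 and 0.0358). The same genes, H2-DMa (1.00 ± 0.16, adjusted p = 6.18e-05), Cd86 (1.54 ± 0.23, adjusted p = 5.17e-05) and Cd274 (0.93 ± 0.27, adjusted p = 0.0234), had higher values in 1C than in 1A, beside 14% of all genes tested and 5.46% with a larger value. Both comparisons share the 1A libraries. Cd86 and Cd274 thus rose more in 1B and 1C than in 1A, whereas H2-DMa had fallen in 1A (-0.73), rose in 1C (0.30) and did not pass in 1B (0.39). The Cd274 call of 1C against 1A was lost without 1A Control library 3, 1A HMGB1 library 1, 1C Control library 2 or 1C HMGB1 library 3 (adjusted p from 0.0505 to 0.0851), and Cd80, at 0.56 ± 0.20 (adjusted p = 0.0569), passed with the block (adjusted p = 0.0225), with DESeq2 and its size factors, with no filter on low counts, and without 1A Control library 3 or 1A HMGB1 library 2.

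The balance between the ligands shifted with these responses. Per length, Cd274 stood at 2.00 times Cd86 in 1A Control and at 13.4 times in 1A HMGB1, at 1.29 and 15.8 times in 1B, and at 2.59 and 11.3 times in 1C. In Protocol 3 it stayed under Cd86, at 0.301 times in Control and 0.324 times with HMGB1. The groups of the ratio did not overlap within 1A, 1B, 1C and 2, where the exact permutation p was 0.10 each, and overlapped in Protocol 3 (exact p = 0.40). In all 20 such tests were made over 4 ratios, none of which could pass at 3 against 3. Cd86 over Cd80 went from 3.92 to 10.02 times in 1C, a value close to the 11.9 times of Protocol 2 Control.

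**Figure D5:**
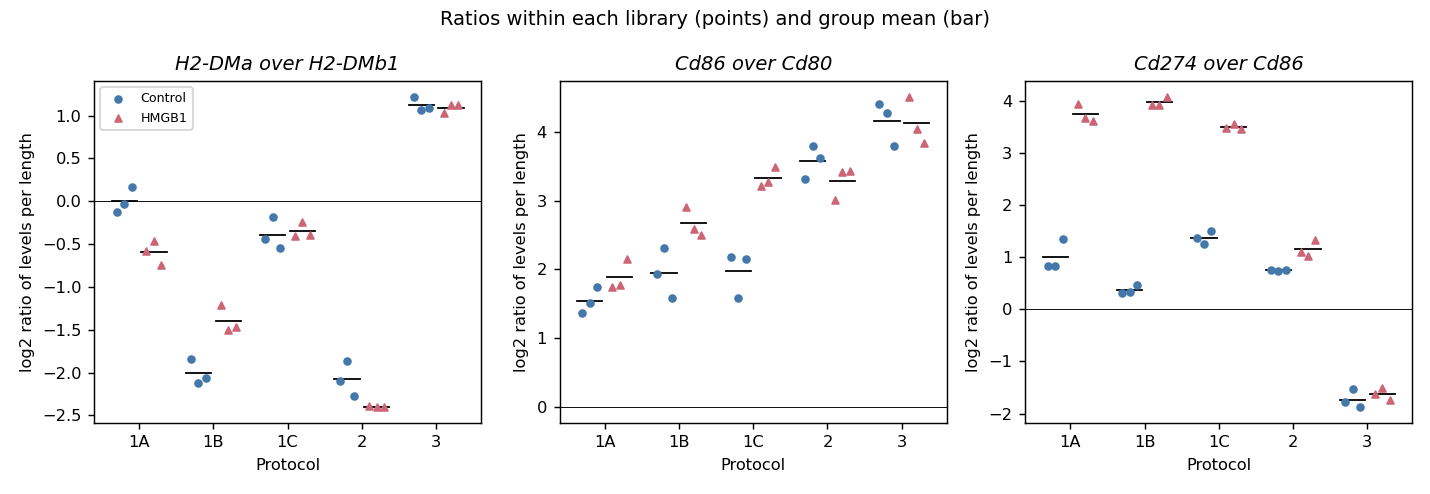
Log2 ratios of levels per length within each library, of H2-DMa over H2-DMb1, Cd86 over Cd80 and Cd274 over Cd86, with the 5 protocols along the x axis; circles are Control libraries, triangles HMGB1 libraries and bars group means. The mean of H2-DMa over H2-DMb1 lies at 1.12 in Protocol 3 Control and -2.08 in Protocol 2 Control, and Cd274 over Cd86 has means of 3.50 to 3.98 in the HMGB1 libraries of Protocol 1.

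The order of the 10 groups had few clear steps for most members. From highest to lowest mean there are 9 neighbouring pairs. H2-Aa differed at 2 of them (Protocol 3 HMGB1 against 1C HMGB1, and Protocol 2 HMGB1 against 1B HMGB1), H2-Eb1 at 2, Ciita at 2, H2-Ab1 at 3, H2-DMa, Cd74 and Cd86 at 4 and Cd274 at 5. H2-DMb1 differed at 1, where the Protocol 2 groups stood above 1C HMGB1 (adjusted p = 3.02e-12), and Cd80 at 1, between 1B HMGB1 and 1B Control (adjusted p = 3.10e-05). The other neighbouring pairs did not pass the test in that fit, although the libraries of 7 of them did not overlap.

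Over the 10 group means, as log2 of CPM plus 1, the class II chains, Cd74, Ciita and H2-DMa were closely tied. H2-Aa had a Pearson correlation of 0.985 with Cd74, 0.946 with Ciita and 0.965 with H2-DMa. H2-DMb1 had -0.0162 with H2-Aa and 0.0895 with H2-DMa, its partner chain. Cd274 had -0.0936 with H2-Aa, 0.456 with Cd80 and 0.325 with Cd86. Cd80 and Cd86 had 0.867 with each other. All points of such a correlation share the 10 groups and their libraries.

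Genes most like each member over the 30 libraries were drawn from 8197 protein-coding genes with a mean of at least 10 CPM. Cd274 was most like Tap1 (r = 0.992), the peptide transporter of the class I pathway, and then Ifit2 and Usp18, both interferon-induced genes (r = 0.988 each). H2-DMb1 was most like Itgam (r = 0.945), the gene of CD11b. Cd86 was most like Nckap1l (r = 0.966), Cd80 like Atxn7l1 (r = 0.876), H2-Ab1 like Nr4a3 (r = 0.952), Ciita like Pnrc1 (r = 0.969), Cd74 like Ep300 (r = 0.961) and H2-Eb1 like Casz1 (r = 0.968). H2-Aa was most like S100a8 (r = 0.945), a neutrophil gene that was at 97.1 ± 45.6 CPM in Protocol 3 Control, and H2-DMa like Neurl3 (r = 0.941).

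Other genes of the pathway were followed as lists, which were chosen with earlier results of these data known. The shares of list genes called are thus descriptions, and their distance from the shares of all genes is no independent test. Of 18 peptide loading genes, such as the cathepsins that trim the invariant chain, 15 were tested in 1A, where HMGB1 raised 5 and lowered 2 (list median log2 0.08, all genes -0.04). In 1B 5 rose and 4 fell of 15 and in 1C 6 rose and 2 fell of 16, beside 29.7%, 29.8% and 28.4% of all genes called higher and 31.6%, 32% and 31.8% called lower in 1A, 1B and 1C. None passed in Protocols 2 and 3. March1, a ubiquitin ligase that removes class II from the surface, rose by 1.59 ± 0.10 (1A), 1.99 ± 0.13 (1B) and 1.65 ± 0.13 (1C) on the log2 scale. Sppl2a, the protease that clears the last Cd74 fragment, rose by 1.17 ± 0.09, 1.74 ± 0.08 and 1.49 ± 0.13. Cd83, which stabilises class II and CD86 at the surface, rose by 0.66 ± 0.11 (1A), 1.14 ± 0.10 (1B) and 2.09 ± 0.13 (1C), while Ctsb, an abundant cathepsin, was at 0.14 ± 0.07, 0.04 ± 0.08 and 0.16 ± 0.11 in the 3 cultures and did not pass.

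At rest the same list split. Against Protocol 3 Control, Protocol 1 Control was higher in 8 and lower in 7 of 17, and Protocol 2 Control was higher in 11 and lower in 5 of 17. Of all genes tested, 37.3% were higher and 42.9% lower in the first comparison, and 40.1% were higher and 37.2% lower in the second. Ifi30, the lysosomal thiol reductase, was at 484 ± 44.4 CPM in Protocol 2 and 54.9 ± 6.34 CPM in Protocol 3, higher by 3.06 ± 0.10 on the log2 scale, and Ctsd was higher in Protocol 2 by 3.14 ± 0.10. Cst3, a cathepsin inhibitor, was lower there by 2.80 ± 0.10. H2-Ob, a chain of the H2-O brake on H2-DM, was at 10.6 ± 1.67 CPM in Protocol 3 Control and at most 0.442 ± 0.131 CPM in the other Control groups, and its partner H2-Oa was at 12.7 ± 1.66 CPM there and at most 2.65 ± 1.24 CPM in the others. In 1B against 1A Control, Ctss, the enzyme that cleaves the invariant chain in antigen presenting cells, fell by 1.22 ± 0.09, whereas Ctsl and Lgmn rose by 1.01 ± 0.10 and 1.24 ± 0.10.

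Of 24 transactivation genes, among them the factors that bind the X and Y boxes and the interferon-gamma relay to Ciita, 23 were tested in each Protocol 1 culture. HMGB1 raised 15, 14 and 15 of them in 1A, 1B and 1C and lowered 4, 3 and 4, beside the 29.7%, 29.8% and 28.4% of all genes called higher. In Protocol 2 it raised 1 of 23, beside 1.21% of all genes, and in Protocol 3 none of 24. Irf1, an interferon-induced activator of Ciita, rose by 3.31 ± 0.11, 4.60 ± 0.08 and 3.86 ± 0.17 in 1A, 1B and 1C. Jak2, the kinase of the interferon-gamma receptor, rose by 3.32 ± 0.07, 3.37 ± 0.11 and 3.86 ± 0.11 and was the list gene called in Protocol 2 (0.52 ± 0.07, adjusted p = 0.00198). Prdm1, a repressor of Ciita, rose by 1.91 ± 0.09 (1A), 2.69 ± 0.10 (1B) and 1.40 ± 0.10 (1C). At rest Prdm1 was at 616 CPM in Protocol 3 and 14.4 CPM in Protocol 2 on average, a fall of 5.50 ± 0.15. Spi1, the myeloid factor PU.1, was lower by 1.84 ± 0.06 in Protocol 1 and 1.80 ± 0.09 in Protocol 2 than in Protocol 3, and the list as a whole was lower in 17 of 24 and 19 of 24, beside 42.9% and 37.2% of all genes called lower (list medians -1.14 and -0.94, all genes -0.12 and 0.08).

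The costimulation list of 19 further B7 and TNF family genes and adhesion partners was followed likewise. Of the genes tested, 10 of 15 rose in 1A, 10 of 14 in 1B and 11 of 15 in 1C, beside the same 29.7%, 29.8% and 28.4% of all genes. Protocol 2 raised 3 of 14, beside 1.21% of all genes, and Protocol 3 none of 16, with list medians of 1.19, 1.36, 1.63, 0.08 and 0.05 on the log2 scale. Icam1, the adhesion partner of LFA-1, rose by 3.60 ± 0.08, 5.13 ± 0.08 and 4.25 ± 0.12 in 1A, 1B and 1C and by 1.07 ± 0.06 in Protocol 2 (adjusted p = 3.76e-06), and it was at 0.35 ± 0.08 in Protocol 3 (adjusted p = 0.226). Cd40, the receptor through which helper T cells license the presenting cell, went from 1.63 ± 0.316 to 376 ± 32.0 CPM in 1B and from 4.84 ± 0.629 to 753 ± 72.3 CPM in 1C, and rose by 1.06 ± 0.14 in Protocol 2 (adjusted p = 0.00165). Icosl, the ligand of ICOS, rose by 3.04 ± 0.10 (1A), 4.32 ± 0.09 (1B) and 3.07 ± 0.15 (1C). Thus Icam1, Cd40 and Tnfsf9 passed in Protocol 2, where none of the 10 members did without the block.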

How the data were processed

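RNA of 30 libraries, 3 for each of 5 protocols with and without HMGB1, was sequenced by the authors, and the deposited table holds raw read counts per gene. The submitters' processing notes name HISAT2 2.0.5 and featureCounts 1.5.0-p3. The genome build and the strand setting are not given in the sources used here. Library totals were 14151983 to 28564757 counts, which sets the counting error of low genes, and no row was without a gene name. CPM and RPKM were computed here from the deposited counts, with TMM factors over 30 libraries and the deposited gene lengths.

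Tests were made in R 4.3.3 with edgeR 4.0.16, limma 3.58.1 and DESeq2 1.42.0. The quasi-likelihood test (filterByExpr, TMM, robust) was run across all genes and p-values were adjusted by Benjamini-Hochberg, with a threshold of 0.05. Each HMGB1 response used the 6 libraries of its protocol, the comparisons of Control groups used 15 libraries, and differences between responses and the order of groups used 30. The code was tested on simulated data. P-values measure the spread between the libraries of a group. Per the study, the replicates came from separate litters in the neonatal protocols and from separate mice in Protocols 2 and 3, where Protocol 2 pooled 3 brains.

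The replicate number was tried as a block, within each protocol for responses and their differences and across protocols for Control comparisons. The pairing given next bears on the first use only. Deviations from the group means of same-numbered Control and HMGB1 libraries correlated in 1B (lowest r 0.192), 1C (0.131), Protocol 2 (0.354) and Protocol 3 (0.231), so there the numbers pair the libraries, a pairing taken from the data. In 1A r was 0.0999, 0.0700 and 0.132. The third pair passed the minimum of 0.1, but the rule asked that every pair pass it, and this was not met.

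The members and lists were chosen with earlier results of these data known. All 10 members are described. From each list, the leading called genes by adjusted p (at most 3) and the most abundant uncalled genes (at most 2) were named per comparison, and values of such genes in other comparisons are given beside these. H2-Oa and H2-Ob are described in Protocol 3 because of values already seen. The alternatives were other normalizations, filters, DESeq2, the block, single libraries left out, 1A alone as Protocol 1 and a fold threshold. Promoter letters were searched in RefSeq windows on GRCm38.p6. The values of 1 marker gene are not reported here.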

Additional observations from a re-analysis of the deposited data

Results flagged for a closer look

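The responses of 5 members differed between adult and neonatal protocols by edgeR's quasi-likelihood test of the difference itself, over 30 libraries with Benjamini-Hochberg adjustment. In Protocol 2 minus Protocol 1 the differences on the log2 scale were -1.12 for H2-Ab1 (adjusted p = 0.0126), -1.22 for Cd74 (0.00764), -0.50 for Cd80 (0.0109), -1.59 for Cd86 (8.36e-08) and -3.99 for Cd274 (1.91e-12). In Protocol 3 minus Protocol 1 they were -1.07 for H2-Ab1 (adjusted p = 0.0102), -1.15 for Cd74 (0.00899), -0.52 for Cd80 (0.00850), -1.34 for Cd86 (1.19e-06) and -4.05 for Cd274 (1.59e-12). Of all genes tested, 43.6% were called in the first comparison, with 20.6% lower, and 42.7% in the second, with 22.5% lower. The 5 of 10 members called were thus near the share of all genes called, though all 5 were lower. With 1A alone as Protocol 1, Cd74 and Cd80 lost their calls in both and Cd86 lost its call against Protocol 3. The comparisons share the Protocol 1 libraries.

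The neonatal cultures differed among themselves in 3 members. In 1B minus 1A the response differences were 1.09 for H2-DMa, 0.81 for Cd86 and 1.72 for Cd274, and in 1C minus 1A they were 1.00 for H2-DMa, 1.54 for Cd86 and 0.93 for Cd274. Both share the 1A libraries. Beside these, 6.9% of all genes tested were called in 1B minus 1A, with 3.7% higher, and 14% in 1C minus 1A, with 5.46% higher. H2-DMa is the member whose value was below 0 in 1A and above 0 in 1B and 1C.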

How the results depend on the processing

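Of 68 called values of members, 68 held with DESeq2 size factors, 67 with DESeq2, 65 with no filter on low counts, 67 with the replicate block and 46 with a log2 fold change of at least 1 required. Leaving out single libraries ended a call in 42 of 720 refits. The number of members called moved by over 1.5 times in few cases. With a log2 change of at least 1 required it was 1 in the response of 1A (3262 of 13489 genes tested), 3 in that of 1C (4513 of 14328), 0 in 1C minus 1A Control and 1 in the response difference 1C minus 1A. With no filter it was 1 in Protocol 2, 4 in 1C minus 1A Control and 5 in both response differences from 1A, and DESeq2 gave 5 in that of 1C. With 1A alone as Protocol 1 it was 3 in the response difference of Protocol 3. Leaving out a library gave 0 to 1 in 1C minus 1A Control. Without both replicate 1 libraries of 1A, an alternative chosen after seeing the data, 5 members were called in 1A. DESeq2 gave no adjusted p for the H2-Aa response in 1B and the Ciita difference of Protocols 3 and 2.

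The replicate block called 7 members in 1A (8401 of 13489 genes tested), adding H2-Ab1 (1.26), H2-Eb1 (0.64) and Cd74 (0.54). The 1A numbers fell short of the minimum for a pairing, yet each library correlated best with its own number (different numbers reached at most 0.0232), a hint from the data and not the design. With the pairing it called 1 member in Protocol 2 (1236 of 15564), 2 in Protocol 3 (334 of 15401) and 7 in 1C (9010 of 14328), and it ended no other call than that of H2-DMa in 1C. In the Control comparisons the block was the replicate number shared over protocols, for which the sources used here give no pairing. There the block added Cd74 in Control 1 minus 2 (-0.54, adjusted p = 0.0266), a call not to be relied on.

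Some values turned sign. With 1A alone as Protocol 1, Control 1 minus 2 became 0.87 for H2-Aa, 0.62 for H2-Eb1, 0.55 for H2-DMa, 0.51 for Cd74 and 0.55 for Ciita, and the H2-DMa response differences became 0.47 (Protocol 2) and 0.52 (Protocol 3). Of values near 0, H2-Ab1 in 1C minus 1A Control became -0.018 (DESeq2) and -0.015 (compared groups alone), and H2-DMb1 there became -0.016 (size factors), -0.016 (DESeq2), -0.0067 (no filter) and -0.026 (compared groups alone). Cd80 in the response difference 3 minus 2 became 0.023 with size factors and 0.023 with DESeq2, and H2-Ab1 in that of 1C minus 1A became 0.066, 0.084 and 0.0089 with size factors, DESeq2 and no filter. The causes were not tested.

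Leaving out single libraries turned the sign of uncalled values only. In the response of 1A the ranges were -0.36 to 0.81 for H2-Aa and -0.0018 to 1.45 for H2-Eb1. In Protocol 2 they were -0.21 to 0.22 for H2-Eb1, -0.25 to 0.036 for Cd74, -0.011 to 0.47 for Ciita and -0.23 to 0.0095 for Cd86, and in Protocol 3 -0.076 to 0.015 for Cd74. In 1C minus 1A Control they were -0.57 to 0.51 for H2-Aa, -0.36 to 0.58 for H2-Ab1, -0.95 to 0.50 for H2-Eb1, -0.093 to 0.12 for H2-DMb1 and -0.99 to 0.018 for Ciita. In the response difference 3 minus 2 they were -0.052 to 0.19 for H2-Aa, -0.076 to 0.12 for H2-Ab1, -0.35 to 0.083 for H2-Eb1, -0.048 to 0.12 for H2-DMa, -0.090 to 0.19 for Cd74, -0.34 to 0.16 for Ciita, -0.15 to 0.12 for Cd80 and -0.18 to 0.070 for Cd274. In 1B minus 1A they were -0.60 to 0.87 for H2-Eb1 and -0.15 to 0.026 for H2-DMb1. In 1C minus 1A they were -0.19 to 0.96 for H2-Aa, -0.57 to 0.38 for H2-Ab1, -0.74 to 0.72 for H2-Eb1, -0.064 to 0.75 for Cd74 and -0.38 to 0.62 for Ciita. Depth limits H2-Aa, H2-Eb1 and Ciita in 1B, where a group held 3 to 32 reads of each.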
